A study of Mus musculus with 8 samples.

Results

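The chemokines and chemokine receptors were followed in keratinocytes sorted from the back skin of K14Snail mice and of their wild type counterparts. The family was taken as every gene whose platform symbol begins with Ccl, Cxcl, Ccr, Cxcr or Cx3c followed by a digit, l1 or r1, with Ccr kept to the numbered receptors and their Ccrl forms. This gave 51 of the 19938 genes on the array: 19 CC ligands, 13 CXC ligands, 1 CX3C ligand and 18 receptors. A gene with several probe sets was represented by the probe set with the highest mean over the 8 arrays. Of the 51 genes, 18 (13 ligands and 5 receptors) reached a log2 value of 7.70, the median over all genes and arrays, on at least 2 arrays and were tested. The other 33 genes, 20 ligands and 13 receptors, stayed under that level on at least 7 of the 8 arrays and are given by their levels alone.

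The study used 4 K14Snail and 4 wild type groups, each measured on 1 array: CD34+, CD34-, Mts24+ and Mts24- keratinocytes. K14Snail mice carry Snail, a transcription factor known for repressing epithelial junction genes, under the keratin 14 promoter, which is active in basal keratinocytes. Both genotypes were CD1 mice aged 8 weeks, and cells of males and females were pooled, with 11 mice behind each CD34 array and 9 behind each Mts24 array. Magnetic selection used either an anti-CD34 antibody, whose target marks hair follicle bulge cells, or the antibody Mts24, which recognises the Plet1 product in the upper follicle. The negative fractions are the study's controls for the positive fractions and hold the cells that were not selected, so they are mixtures and not a defined cell type. A pool gives 1 value, with no view of the spread between mice. The labels do not say whether positive and negative cells of a marker came from the same mice; the stated pool sizes match.

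Chemokines are small secreted or membrane-anchored proteins that bind receptors coupled to G proteins and direct the movement of leukocytes along their gradients. They are named by the spacing of their first cysteines, and many ligands bind several receptors. In mouse hair follicles, keratinocytes of the upper follicle are known as sources of Ccl2 and Ccl20, which draw monocytes and dendritic cell precursors through Ccr2 and Ccr6. Cxcl9, Cxcl10 and Cxcl11 are interferon-induced ligands of Cxcr3. Mouse epidermis also houses gamma delta T cells and Langerhans cells, which carry chemokine receptors of their own.

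The promoters of 4 genes on which the results turn are shown, as the 250 bases before the transcription start from RefSeq GRCm38.p6, in the direction of transcription. Cxcl9 and Cxcl10 are shown because both were high in the Mts24+ cells of K14Snail mice, Ccl20 because it read higher in Mts24+ cells and lower in CD34+ cells than in their negative fractions, and Ccr4 because it was the receptor with the largest difference between fractions. Capitals mark matches on either strand to GAAANNGAA, a core shared by interferon-stimulated response elements, or GGNNNTTCC, a loose form of the NF-kB site. Cxcl9 lies at chr5:92328080-92328329 and Cxcl10 at chr5:92348890-92349139, both on the minus strand. Ccl20 lies at chr1:83116516-83116765 on the plus strand, and Ccr4 at chr9:114496545-114496794 on the minus strand.
Cxcl9: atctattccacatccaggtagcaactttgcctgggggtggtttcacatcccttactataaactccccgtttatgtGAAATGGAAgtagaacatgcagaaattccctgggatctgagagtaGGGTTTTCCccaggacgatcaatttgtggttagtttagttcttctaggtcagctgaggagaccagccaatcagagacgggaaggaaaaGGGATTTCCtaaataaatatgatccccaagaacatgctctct
Cxcl10: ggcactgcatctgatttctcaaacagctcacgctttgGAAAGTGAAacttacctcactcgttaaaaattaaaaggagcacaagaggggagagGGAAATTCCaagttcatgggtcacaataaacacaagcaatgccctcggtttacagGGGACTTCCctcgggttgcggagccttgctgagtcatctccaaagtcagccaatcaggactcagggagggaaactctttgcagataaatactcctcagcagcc
Ccl20: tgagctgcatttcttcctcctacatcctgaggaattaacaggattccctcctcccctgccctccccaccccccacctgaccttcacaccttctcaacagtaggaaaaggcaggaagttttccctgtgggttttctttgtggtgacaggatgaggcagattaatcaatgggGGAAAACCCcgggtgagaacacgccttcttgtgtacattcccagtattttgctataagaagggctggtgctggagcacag
Ccr4: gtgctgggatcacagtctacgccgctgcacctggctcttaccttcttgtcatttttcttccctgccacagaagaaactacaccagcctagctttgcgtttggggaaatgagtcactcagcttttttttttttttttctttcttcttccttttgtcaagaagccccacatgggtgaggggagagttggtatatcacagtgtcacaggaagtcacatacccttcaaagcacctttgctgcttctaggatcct

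The Cxcl9 window held GAAANNGAA once, 175 bases before the start, and GGNNNTTCC at 130 and 42 bases before it. The Cxcl10 window held the same number of each, GAAANNGAA at 213 bases and GGNNNTTCC at 158 and 103 bases before the start. The Ccl20 window held GGNNNTTCC once, 80 bases before the start, and no match to either spelling was found in the Ccr4 window. The 2 spellings do not overlap in these windows. Promoters were listed for 15 of the 18 tested genes and for 37 of all 51. Ccl2, Ccl7 and Cxcl16 had no entry. Among these 37 genes GAAANNGAA was found in 8, of which 5 were tested (Ccl1, Ccl19, Cxcl9, Cxcl10 and Cxcl14), and 7.13% of all 32851 promoters of the same length held it. GGNNNTTCC was found in 14 of the 37, and in 15.7% of all promoters. Both spellings were settled on after the family's promoters had been seen, so these matches are a description of the letters in the windows.

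Snai1, which encodes Snail, read 10.84 to 11.04 on the 4 K14Snail arrays and 7.86 to 8.16 on the 4 wild type arrays (log2 difference 2.94 ± 0.06, limma's standard error, adjusted p = 6.11e-05). Cd34 was higher by 7.24 ± 0.25 in CD34+ than in CD34- cells (adjusted p = 0.000203), and by 1.57 ± 0.25 in Mts24+ than in Mts24- cells (adjusted p = 0.0107). Plet1 was higher by 3.22 ± 0.22 in Mts24+ than in Mts24- cells (adjusted p = 0.00149). In the CD34 sort Plet1 differed by 0.59 ± 0.22 and did not pass (adjusted p = 0.111). It read 11.22 and 11.15 in CD34- cells of K14Snail and wild type mice, against 9.16 and 9.91 in their Mts24- cells. Keratinocyte markers averaged 12.62 to 13.04 on the 8 arrays. All 7 neutrophil and all 6 endothelial markers were under 7.70 on every array.

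All values from here on are RMA log2 levels of the 1 probe set of a gene, and all differences are log2 differences. Differences come from a limma model fitted to all 10720 tested genes, and p-values were adjusted over all of them with a threshold of 0.05. A CD34 or Mts24 difference rests on 2 pairs of arrays, 1 per genotype, and a genotype difference on 4 pairs. The spread behind errors and p-values was estimated for each gene over all 8 arrays and drawn towards that of all tested genes. A sort's p-value is therefore not the spread of its own 2 pairs, and no p-value measures the spread between mice. If positive and negative cells of a marker shared their mice, the 4 genotype pairs come from only 2 pools per genotype.

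In the Mts24 sort Ccl2, Ccl7, Cxcl9, Cxcl10, Cxcl12, Cxcl16, Ccl19 and Ccl20 were higher in the positive cells, and Ccl6 and all tested receptors were lower. Of the 18 tested genes 14 passed the threshold, against 22.8% of all tested genes. Ligands accounted for all 8 that were higher (11.1% of all tested genes were higher), and all 5 receptors and 1 ligand, Ccl6, were lower (11.7% of all tested genes were lower). The median difference was 1.12 over the 13 ligands and -2.01 over the 5 receptors, beside 0.02 over all tested genes. Of the 18 genes, 7 reached the level for testing only on the positive or only on the negative side of the sorts, so these counts describe the genes that could be tested. Without the K14Snail Mts24- array 7 of the 18 passed, and without the wild type Mts24+ array 8 did.

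**Figure D1:**
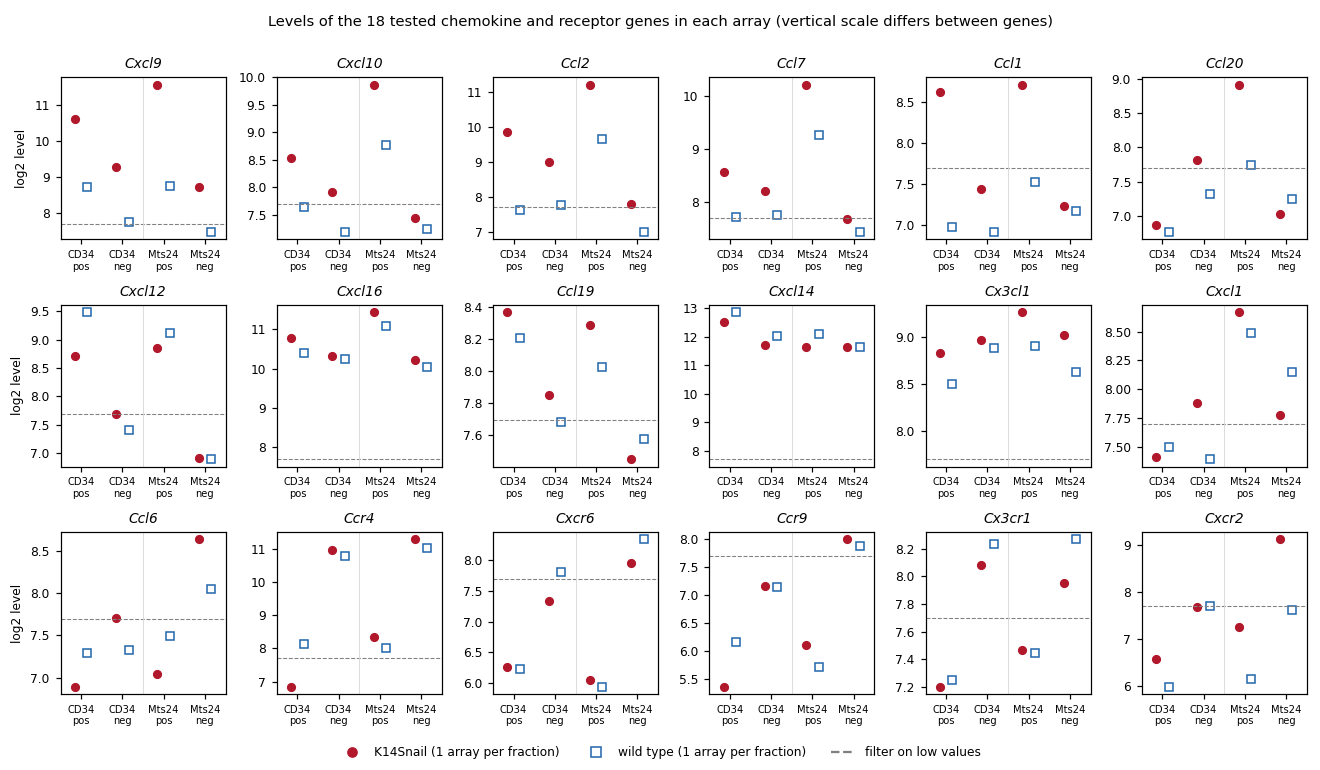
RMA log2 level of each of the 18 tested genes in the 4 sorted fractions, with K14Snail arrays as filled circles and wild type arrays as open squares. The dashed line is the level for testing, 7.70, and the vertical scale differs between panels. Ccl2, Ccl7, Cxcl9 and Cxcl10 are highest in Mts24+ cells of K14Snail mice, while Ccr4 is highest in the negative fractions of both genotypes.

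Ccl2, the main monocyte attractant, read 11.21 and 9.64 in Mts24+ cells of K14Snail and wild type mice, against 7.81 and 6.99 in their Mts24- cells. The difference was 3.03 ± 0.34 (8.15-fold, adjusted p = 0.00445). Ccl7, which shares the receptor Ccr2, read 10.22 and 9.26 in Mts24+ cells of K14Snail and wild type mice, against 7.67 and 7.42 in their Mts24- cells (2.19 ± 0.19, 4.56-fold, adjusted p = 0.0025). Both Mts24+ arrays lay above both Mts24- arrays for either gene, and the sort difference was present in each genotype. The third tested gene beside them on chromosome 11, Ccl1, a ligand of Ccr8, read 8.72 and 7.52 in Mts24+ cells of K14Snail and wild type mice, against 7.23 and 7.17 in their Mts24- cells. Its difference of 0.92 ± 0.38 did not pass the threshold (adjusted p = 0.135).

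Cxcl9 read 11.58 and 8.76 in Mts24+ cells of K14Snail and wild type mice, against 8.73 and 7.48 in their Mts24- cells. The difference was 2.06 ± 0.36 (4.16-fold, adjusted p = 0.015). The Mts24+ cells of wild type mice stood only just above the Mts24- cells of K14Snail mice, so the groups nearly met across genotypes. Without the K14Snail Mts24- array the difference was 1.74 and no longer passed (adjusted p = 0.0916). Cxcl10 read 9.87 and 8.77 in Mts24+ cells of K14Snail and wild type mice, against 7.44 and 7.25 in their Mts24- cells (1.98 ± 0.22, 3.93-fold, adjusted p = 0.00431). Its positive and negative arrays did not overlap.

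Ccl20, the ligand of Ccr6, read 8.92 and 7.74 in Mts24+ cells of K14Snail and wild type mice, against 7.03 and 7.24 in their Mts24- cells (1.20 ± 0.32, 2.29-fold, adjusted p = 0.047). The groups did not overlap, but the difference was 1.90 within K14Snail and 0.50 within wild type mice. The call was lost in 5 of the 8 fits that left out 1 array: without either CD34- array (1.20, adjusted p = 0.0862 each), without the K14Snail Mts24+ array (0.71, adjusted p = 0.147), without the K14Snail Mts24- array (0.86, 0.232) and without the wild type Mts24- array (1.52, 0.0768). The fits without either CD34- array are the same fit, and the Mts24 difference itself did not change in them. Ccl6, a mouse CC chemokine that attracts myeloid cells, was lower. It read 7.04 and 7.49 in Mts24+ cells of K14Snail and wild type mice, against 8.63 and 8.05 in their Mts24- cells (-1.07 ± 0.28, adjusted p = 0.0442). Ccl6 reached 7.70 only on negative arrays, so it could be tested only because it was high there. Its call was lost in 6 of the 8 fits that left out 1 array: without either CD34- array (-1.07, adjusted p = 0.0709 each), without the K14Snail Mts24- (-0.74, 0.213) or Mts24+ array (-0.81, 0.2), and without the wild type Mts24- (-1.41, 0.0609) or Mts24+ array (-1.34, 0.0808).

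Cxcl16, a membrane-anchored ligand of Cxcr6, read 11.44 and 11.07 in Mts24+ cells of K14Snail and wild type mice, against 10.21 and 10.05 in their Mts24- cells (1.12 ± 0.11, 2.18-fold, adjusted p = 0.00383). The sort difference was larger than the genotype difference on either side, and the groups did not overlap. Cxcl1, a neutrophil attractant that binds Cxcr2, read 8.67 and 8.49 in Mts24+ cells of K14Snail and wild type mice, against 7.78 and 8.15 in their Mts24- cells. Its difference of 0.62 ± 0.21 did not pass (adjusted p = 0.0897). Cx3cl1, or fractalkine, the membrane-anchored ligand of Cx3cr1, read 9.27 and 8.90 in Mts24+ cells of K14Snail and wild type mice, against 9.02 and 8.63 in their Mts24- cells (0.26 ± 0.11, adjusted p = 0.155). Here the groups overlapped.

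**Figure D2:**
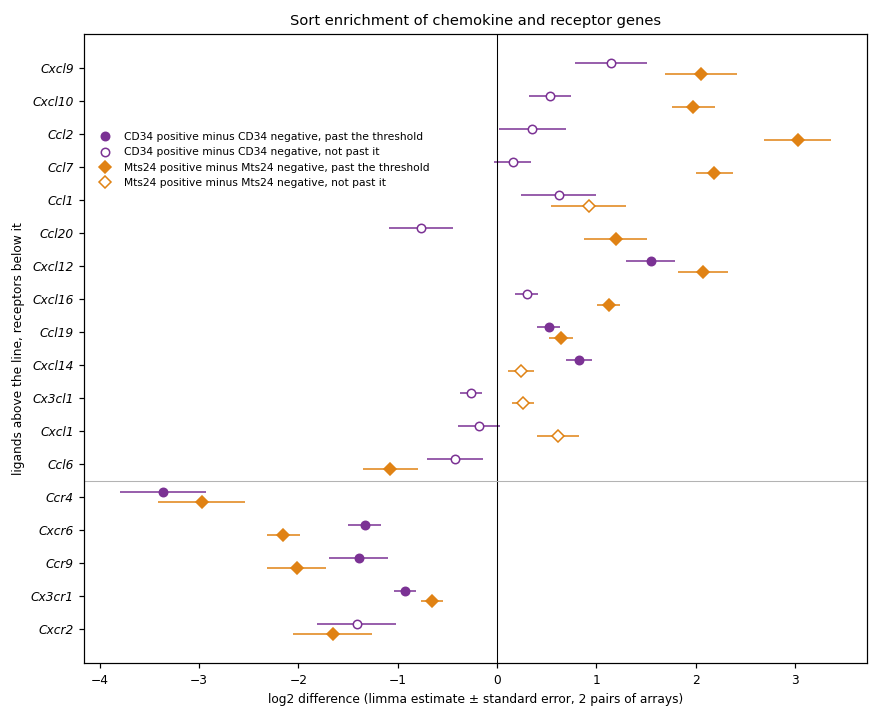
Log2 difference between positive and negative cells (± limma's standard error) for the CD34 and the Mts24 sort, for the 13 ligands and the 5 receptors tested. Filled points passed the threshold. All 5 receptors lie below 0 in both sorts, and Ccl2 and Ccl7 lie far above 0 in the Mts24 sort alone.

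In the CD34 sort Cxcl12 and Ccl19, both also higher in Mts24+ cells, and Cxcl14 were higher in the positive cells. Of the 18 tested genes 7 passed, against 23.7% of all tested genes: the ligands Cxcl12, Cxcl14 and Ccl19 were higher (12.1% of all tested genes were), and the receptors Ccr4, Ccr9, Cxcr6 and Cx3cr1 were lower (11.6% of all tested genes were). Of the genes that passed, Cxcl12 reached the level for testing only on positive arrays, and Ccr9, Cxcr6 and Cx3cr1 only on negative arrays. These genes could be tested only because they were high there, so the counts are no support. The median difference was -0.01 over the 18 genes and -0.03 over all tested genes. Without the wild type CD34- array 3 of the 18 passed (Ccr4, Cx3cr1 and Cxcr6).

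Cxcl12, the ligand of Cxcr4 and a chemokine known from stromal niches, read 8.71 and 9.48 in CD34+ cells of K14Snail and wild type mice, against 7.69 and 7.40 in their CD34- cells (1.55 ± 0.25, 2.92-fold, adjusted p = 0.00851). The Mts24 sort gave 8.85 and 9.11 in positive cells of K14Snail and wild type mice, against 6.92 and 6.90 in their Mts24- cells (2.07 ± 0.25, 4.21-fold, adjusted p = 0.0052). Cxcl12 reached 7.70 only on its 4 positive arrays, so it could be tested only because it was high there. Its positive and negative arrays did not overlap in either sort, which is therefore no support. Of the 4 positive arrays the wild type ones were the higher. Without the wild type CD34- array the CD34 difference was 1.29 and did not pass (adjusted p = 0.0577). Fibroblasts also make Cxcl12. Of the 7 fibroblast markers on the array 3 were under 7.70 on every array (Dcn, Lum and Pdgfra), and the 7 averaged 7.36 and 7.01 in CD34+ cells of K14Snail and wild type mice, against 6.85 and 6.72 in their CD34- cells. In Mts24+ cells of K14Snail and wild type mice they averaged 7.04 and 6.95, against 6.84 and 6.81 in their Mts24- cells. Among the 4 tested markers, Col1a2 and Fbln2 were higher in CD34+ cells (0.95 and 0.84), and Fbln2 in Mts24+ cells (0.48). Col1a1 (0.55) and Col3a1 (-0.12) did not pass in the CD34 sort. Neither did Col1a1 (-0.13), Col3a1 (-0.07) or Col1a2 (0.02) in the Mts24 sort. The part of such cells in the Cxcl12 result was not tested.

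Cxcl14, a chemokine made constitutively by epithelia, read 12.51 and 12.87 in CD34+ cells of K14Snail and wild type mice, against 11.70 and 12.04 in their CD34- cells (0.82 ± 0.13, 1.77-fold, adjusted p = 0.00871). Its positive and negative arrays did not overlap. Without the K14Snail CD34- array the difference was 0.78 (adjusted p = 0.0668), and without the wild type CD34- array 0.87 (adjusted p = 0.0515). In the Mts24 sort it read 11.65 and 12.09 in positive cells of K14Snail and wild type mice, against 11.64 and 11.63 in negative cells, and the difference of 0.24 ± 0.13 did not pass (adjusted p = 0.248).

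Ccl19, a ligand of Ccr7, was higher in the positive cells of both sorts. It read 8.37 and 8.21 in CD34+ cells of K14Snail and wild type mice, against 7.85 and 7.69 in their CD34- cells (0.52 ± 0.12, adjusted p = 0.0273). In Mts24+ cells of K14Snail and wild type mice it read 8.29 and 8.03, against 7.45 and 7.57 in their Mts24- cells (0.64 ± 0.12, adjusted p = 0.0168). The groups did not overlap, but the differences were small, and the CD34 call was lost without any 1 of the CD34 arrays (0.48 to 0.56, adjusted p = 0.0628 to 0.145). The Mts24 call was lost without the K14Snail Mts24- (0.49, adjusted p = 0.091), K14Snail Mts24+ (0.57, 0.0862) or wild type Mts24+ array (0.72, 0.0571). Ccl19 has 5 probe sets here and near-identical copies in the mouse genome, so its level is uncertain.

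Ccl2 and Ccl7 did not pass the threshold in the CD34 sort. Ccl2 read 9.87 and 7.61 in CD34+ cells of K14Snail and wild type mice, against 9.01 and 7.76 in their CD34- cells (0.35 ± 0.34, adjusted p = 0.518). Without the K14Snail CD34+ array this difference was -0.18. Ccl7 read 8.56 and 7.71 in CD34+ cells of K14Snail and wild type mice, against 8.20 and 7.74 in their CD34- cells (0.16 ± 0.19, adjusted p = 0.61). For both genes the K14Snail array of the CD34+ cells stood above the other 3 CD34 arrays, and within wild type mice CD34+ cells differed from CD34- cells by only -0.15 for Ccl2 and -0.04 for Ccl7.

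Other ligands of the CD34 sort did not pass the threshold. Cxcl9 read 10.62 and 8.73 in CD34+ cells of K14Snail and wild type mice, against 9.28 and 7.76 in their CD34- cells (1.15 ± 0.36, adjusted p = 0.0724), and passed when either Mts24+ array was left out (adjusted p = 0.0177). Cxcl10 read 8.54 and 7.65 in CD34+ cells of K14Snail and wild type mice, against 7.92 and 7.19 in their CD34- cells (0.54 ± 0.22, adjusted p = 0.134). Cxcl16 read 10.79 and 10.39 in CD34+ cells of K14Snail and wild type mice, against 10.32 and 10.26 in their CD34- cells (0.30 ± 0.11, adjusted p = 0.122). Cxcl16 did not overlap between CD34+ and CD34- arrays, whereas Cxcl9 and Cxcl10 overlapped across genotypes.

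Ccl20 and Cx3cl1 read lower in CD34+ than in CD34- cells, and neither passed the threshold. Ccl20 read 6.86 and 6.76 in CD34+ cells of K14Snail and wild type mice, against 7.82 and 7.32 in their CD34- cells (-0.76 ± 0.32, adjusted p = 0.147). Cx3cl1 read 8.83 and 8.50 in CD34+ cells of K14Snail and wild type mice, against 8.97 and 8.88 in their CD34- cells (-0.26 ± 0.11, adjusted p = 0.158). Ccl20 did not overlap between the positive and negative arrays, and Cx3cl1 differed by -0.14 within K14Snail and -0.38 within wild type mice.

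The CD34 and Mts24 enrichments were then set against each other, as the CD34 difference minus the Mts24 difference. Of the 18 genes 2 passed, Ccl2 and Ccl7, both lower, where 4.08% of all tested genes passed and 1.7% were lower. The contrast was -2.67 ± 0.48 for Ccl2 (adjusted p = 0.0444) and -2.03 ± 0.27 for Ccl7 (adjusted p = 0.0187). Both were thus more enriched in the Mts24 than in the CD34 sort, each measured against its own negative fraction. These negative fractions were not alike, since Plet1 read higher in CD34- than in Mts24- cells. Each call was fragile. That of Ccl2 held without either CD34+ array and was lost without any other 1 array (-3.13 to -2.22, adjusted p = 0.0514 to 0.177). That of Ccl7 held without either CD34+ array and without the wild type Mts24- array, and was otherwise lost (-2.22 to -1.80, adjusted p = 0.0546 to 0.101). Cxcl16 had a contrast of -0.83 ± 0.16 (adjusted p = 0.0577, and 0.0472 with no pool block in the model), which passed without the K14Snail CD34+ array (-0.91, adjusted p = 0.0458), and Ccl20 one of -1.96 ± 0.45 (adjusted p = 0.0868).

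All 5 tested receptors were lower in Mts24+ cells and 4 of them in CD34+ cells, and none passed the genotype comparison. Ccr9, Cx3cr1, Cxcr2 and Cxcr6 reached 7.70 only on negative arrays, so these 4 could be tested only because they were high there, and the counts are no support. Ccr4, the receptor for Ccl17 and Ccl22 on skin-homing T cells, read 6.85 and 8.15 in CD34+ cells of K14Snail and wild type mice, against 10.95 and 10.77 in their CD34- cells (-3.36 ± 0.43, adjusted p = 0.00422). Mts24+ cells of K14Snail and wild type mice read 8.34 and 8.02, against 11.28 and 11.03 in their Mts24- cells (-2.97 ± 0.43, adjusted p = 0.00907). Negative cells thus read 10.3-fold and 7.85-fold higher than positive cells, and no positive array came near a negative one. The Mts24 call was lost without the K14Snail Mts24- (-2.64, adjusted p = 0.0627) or the wild type Mts24+ array (-2.60, 0.0571). In bulk arrays fewer cells of a type and less RNA per cell cannot be told apart.

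Cxcr6, the receptor of Cxcl16, read 6.25 and 6.24 in CD34+ cells of K14Snail and wild type mice, against 7.34 and 7.81 in their CD34- cells (-1.33 ± 0.17, adjusted p = 0.00391). Among Mts24 fractions it read 6.05 and 5.94 in positive cells of K14Snail and wild type mice, against 7.96 and 8.34 in their Mts24- cells (-2.15 ± 0.17, adjusted p = 0.00195). Its ligand thus stood higher in the Mts24+ cells while the receptor stood lower there. Ccr9, a receptor for Ccl25 known from gut-homing T cells, read 5.37 and 6.16 in CD34+ cells of K14Snail and wild type mice, against 7.17 and 7.14 in their CD34- cells (-1.39 ± 0.30, adjusted p = 0.0225). In Mts24+ cells of K14Snail and wild type mice it read 6.12 and 5.73, against 8.00 and 7.88 in their Mts24- cells (-2.01 ± 0.30, adjusted p = 0.00919). Cxcr6 and Ccr9 were under 7.70 on all 4 positive arrays, so the sizes of these differences depend on the array's background. The CD34 call of Ccr9 was lost without the K14Snail (-1.42, adjusted p = 0.108) or wild type CD34- array (-1.36, 0.116), and its Mts24 call without the K14Snail Mts24- (-1.83, 0.0657) or wild type Mts24+ array (-1.67, 0.051).

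Cx3cr1, the fractalkine receptor of monocytes and macrophages, read 7.20 and 7.25 in CD34+ cells of K14Snail and wild type mice, against 8.08 and 8.23 in their CD34- cells (-0.93 ± 0.11, adjusted p = 0.00322). In Mts24+ cells of K14Snail and wild type mice it read 7.47 and 7.45, against 7.95 and 8.27 in their Mts24- cells (-0.65 ± 0.11, adjusted p = 0.0134). The Mts24 call was lost without the wild type Mts24- (-0.53, 0.0793) or Mts24+ array (-0.57, 0.0706). Cxcr2, best known as a neutrophil receptor, read 6.57 and 5.99 in CD34+ cells of K14Snail and wild type mice, against 7.68 and 7.70 in their CD34- cells (-1.41 ± 0.40, adjusted p = 0.0522, and 0.0314 with no pool block). This CD34 difference passed without the K14Snail CD34- array (-2.01, adjusted p = 0.027) and without either Mts24- array (-1.41, adjusted p = 0.0334). The Mts24+ cells of K14Snail and wild type mice read 7.26 and 6.16, against 9.11 and 7.62 in their Mts24- cells (-1.65 ± 0.40, adjusted p = 0.0343). The Mts24- cells of K14Snail mice stood well above every other array, and the Mts24 call was lost without that array (-1.12, 0.152), without the K14Snail Mts24+ array (-1.97, 0.0833) or without the wild type Mts24+ array (-1.34, 0.158).

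**Figure D3:**
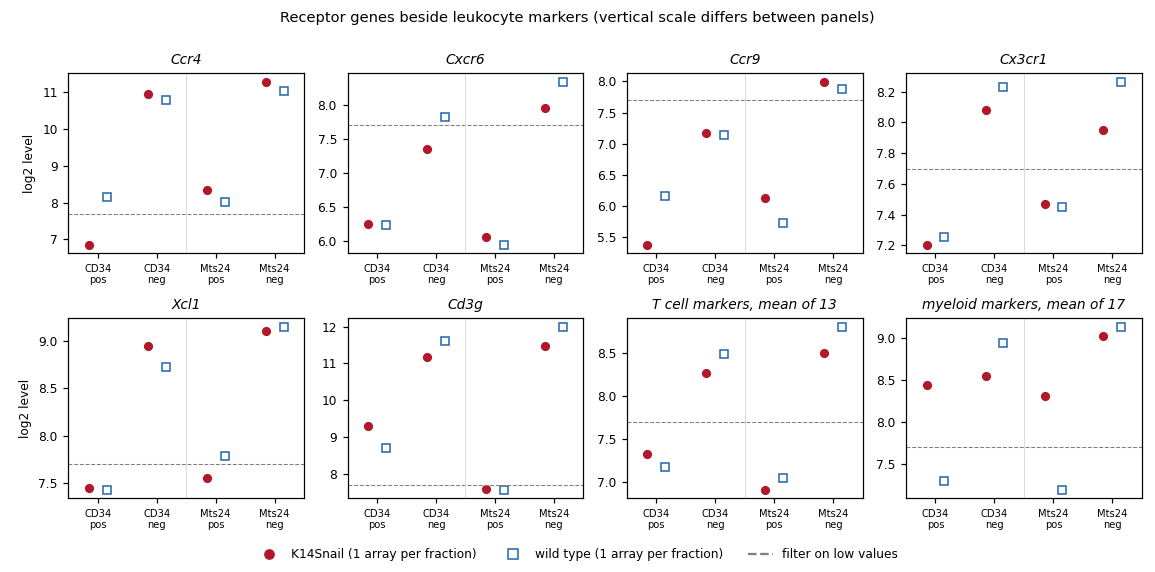
Log2 levels in the 4 fractions of Ccr4, Cxcr6, Ccr9 and Cx3cr1 beside the T cell chemokine Xcl1, the T cell marker Cd3g and the mean levels of 13 T cell and 17 myeloid markers, with K14Snail as filled circles and wild type as open squares. The receptors, Xcl1 and the T cell markers are lower in the positive fractions of both genotypes, while the myeloid mean is lower there mainly in wild type mice.

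Most tested T cell markers were lower in the positive fractions, as the receptors were. The 13 T cell markers on the array averaged 7.33 and 7.17 in CD34+ cells of K14Snail and wild type mice, against 8.26 and 8.48 in their CD34- cells. Mts24+ cells of K14Snail and wild type mice averaged 6.90 and 7.04, against 8.49 and 8.80 in their Mts24- cells. Of the 8 tested T cell markers 6 were lower in CD34+ cells (11.6% of all tested genes were) and 7 in Mts24+ cells (11.7%). Only Cd5 was higher in Mts24+ cells, and 4 of the 13 were under 7.70 on every array. Cd3d, Il2rb and Ctsw reached 7.70 only on negative arrays, so they could be tested only because they were high there. Cd3g, a chain of the T cell receptor complex, read 9.30 and 8.70 in CD34+ cells of K14Snail and wild type mice, against 11.18 and 11.61 in their CD34- cells. Within CD34+ cells Ccr4 was lower by 1.30 in K14Snail than in wild type mice. Of the 13 T cell markers, Zap70, Il2rb, Skap1, Ctsw and Gzmb also read lower there. The other markers of the list, Cd3g among them, read higher. Of the 15 tested myeloid and Langerhans cell markers 2 were lower in CD34+ cells, near the 11.6% of all tested genes, and 6 in Mts24+ cells, against 11.7%. Among these, Ptprc, Fcer1g and Adgre1 also reached 7.70 only on negative arrays. The counts of lower markers in both lists are therefore no support. The part of these cells in the receptor differences was not tested.

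Across genotypes, Cxcl9 and Ccl2 were higher in K14Snail mice in the model with the pool block, 2 of the 18 genes, where 2.05% of all tested genes passed and 1.14% were higher. With no pool block in the model neither passed, and 0.382% of all tested genes did. The block used a correlation of -0.175 between arrays of a pool, which makes the errors of genotype differences smaller than without it, so the p-values without the block stand beside those with it. An unadjusted p under 0.05 was reached by 9 of the 18 genes, of which Cxcl14 was lower in K14Snail mice, and by 2774 of the 10720 tested genes. The median difference was 0.29 over the 13 ligands and -0.13 over the 5 receptors, beside 0.03 over all tested genes. Ccl1, Ccl2, Ccl7, Cx3cl1, Cxcl9, Cxcl10 and Cxcl16 were higher in K14Snail mice in all 4 fractions, 7 of the 18 genes, as were 18.9% of all tested genes. Of these, Ccl1 reached 7.70 only on K14Snail arrays, so its place in this count is no support.

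**Figure D4:**
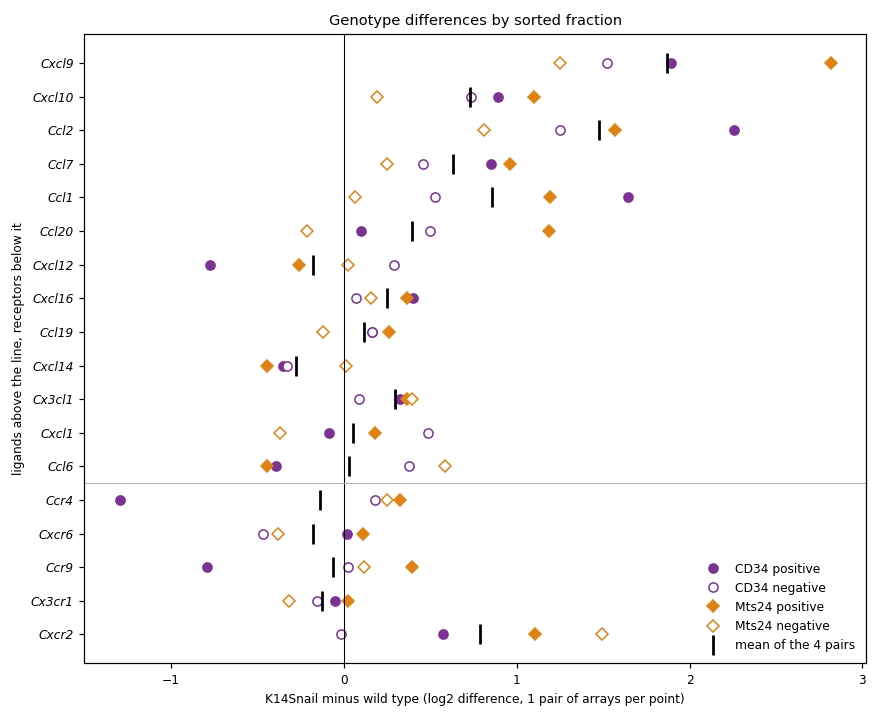
Log2 difference between K14Snail and wild type mice in each of the 4 fractions (points, 1 pair of arrays each) and their mean (bar) for the 18 tested genes. Cxcl9 and Ccl2 lie above 0 in all 4 fractions, and Ccr4 falls below 0 in CD34+ cells alone.

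Cxcl9 was higher in K14Snail than in wild type mice by 1.89 in CD34+, 1.52 in CD34-, 2.82 in Mts24+ and 1.25 in Mts24- cells. The mean difference was 1.87 ± 0.22 (3.66-fold, adjusted p = 0.0286, and 0.0587 with no pool block). Its 4 K14Snail arrays, at 8.73 to 11.58, overlapped the 4 wild type arrays, at 7.48 to 8.76, when taken over all fractions. The call was lost without any 1 array (1.57 to 2.03, adjusted p = 0.0647 to 0.126). Ccl2 was higher by 2.26 in CD34+, 1.25 in CD34-, 1.57 in Mts24+ and 0.81 in Mts24- cells, with a mean of 1.47 ± 0.20 (2.78-fold, adjusted p = 0.0375, and 0.0686 with no pool block). It passed without the K14Snail or the wild type CD34+ array (1.21, adjusted p = 0.0383) and was lost without any other 1 array (1.48 to 1.70, adjusted p = 0.0732 to 0.145). For both genes every fraction of K14Snail mice read above its wild type counterpart.

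Cxcl10 was higher in K14Snail mice by 0.73 ± 0.13 (1.66-fold, adjusted p = 0.0549, and 0.105 with no pool block) and Ccl7 by 0.63 ± 0.11 (1.55-fold, adjusted p = 0.0553, and 0.107 with no pool block), neither past the threshold. Ccl1 read 8.62 and 6.98 in CD34+ cells of K14Snail and wild type mice and 7.44 and 6.92 in their CD34- cells. Its genotype difference of 0.86 ± 0.22 did not pass (adjusted p = 0.105), and it reached 7.70 only in the positive cells of K14Snail mice. The third ligand of Cxcr3, Cxcl11, was under 7.70 on every array, at 6.63 to 7.53 on K14Snail and 6.80 to 7.02 on wild type arrays. Cxcr2 differed by 0.79 ± 0.23 (adjusted p = 0.124), by 1.10 in Mts24+ and 1.49 in Mts24- cells, and passed when either CD34 pool was left out (1.30, adjusted p = 0.0486). Cx3cl1 (0.29 ± 0.07, adjusted p = 0.0834), Cxcl16 (0.25 ± 0.07, 0.113) and Cxcl14 (-0.28 ± 0.08, 0.116) differed by less, and Ccr4 by -0.14, Ccr9 by -0.06 and Cxcl12 by -0.18, with signs that turned when a CD34+ array was left out.

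In a single fraction there is 1 array per genotype and no replicate check. A difference above 1 was seen for Cxcl9, Ccl2 and Ccl1 in CD34+ cells (3 of 18, against 2.8% of all tested genes), for Cxcl9 and Ccl2 in CD34- cells (0.457%) and for Cxcl9 and Cxcr2 in Mts24- cells (0.466%). In Mts24+ cells it was seen for Ccl1, Ccl2, Ccl20, Cxcl9, Cxcl10 and Cxcr2 (6 of 18, against 1.33%). Ccl1 reached 7.70 only in the CD34+ and Mts24+ cells of K14Snail mice, so its place in these counts is no support. Cxcr2 read 7.26 and 6.16 in Mts24+ cells of K14Snail and wild type mice, both under 7.70. A difference below -1 was seen for Ccr4 in CD34+ cells alone (1 of 18, against 2.15%).

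Myeloid and Langerhans cell markers also averaged higher in the positive cells of K14Snail than of wild type mice. The 17 on the array averaged 8.44 and 7.29 in CD34+ cells of K14Snail and wild type mice and 8.31 and 7.18 in their Mts24+ cells. In the CD34- cells of K14Snail and wild type mice they averaged 8.55 and 8.94, and in their Mts24- cells 9.03 and 9.14. Lyz2, a lysozyme of myeloid cells, read 8.97 and 5.66 in CD34+ cells of K14Snail and wild type mice and 8.91 and 5.68 in their Mts24+ cells. Lyz2 reached 7.70 only in these positive cells of K14Snail mice, so it could be tested only because it was high there. None of the 15 tested markers passed in the genotype comparison (limma, with the pool block, median 0.43), which averages positive and negative fractions. None passed the interaction described below (limma, median 1.60, beside 0.04 over all tested genes). The smallest interaction adjusted p was 0.118, for Lyz2 and Laptm5, and 0.0637 with no pool block. In the negative fractions Cxcl9 and Ccl2 read higher in K14Snail mice, and the marker mean read lower. Lyz2 read higher there too, at 6.04 and 5.88 in CD34- cells of K14Snail and wild type mice. In their Mts24- cells it read 6.57 and 6.05, and these Lyz2 values were all under 7.70. The part of such cells in the genotype differences was not tested.

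Whether the positive and negative cells responded differently to the transgene was tested as an interaction. No gene passed with or without the pool block, among the 18 or among all tested genes (0.0%), while 7 of the 18 and 845 of all tested genes had an unadjusted p under 0.05. The smallest adjusted p among the 18 was 0.247, for Ccl6. Without either Mts24+ array 6 genes passed (Ccl1, Ccl2, Ccl6, Ccr4, Ccr9 and Cxcl12), and without either CD34+ array 1 did (Cxcl9). The genes that pass therefore depend on which fraction is in the model.

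The 33 untested genes lay between 4.31 and 8.19. A single array reached 7.70 for 5 of them: Cxcr4, the receptor of Cxcl12, at 8.19 in CD34+ cells of K14Snail mice, Ccl22 at 8.04 in Mts24- and Ccl17 at 7.97 in Mts24+ cells of K14Snail mice, Ccl11 at 7.94 in Mts24+ cells of K14Snail mice, and Ccr7 at 7.72 in Mts24- cells of wild type mice. For 27 of the 33 the 8 arrays spanned less than 1. Cxcr4 read 8.19 and 7.66 in CD34+ cells of K14Snail and wild type mice, against 7.17 and 6.93 in their CD34- cells. Its 2 CD34+ arrays were above its other 6 arrays.

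Several receptors of the ligands described stayed low on all arrays. Ccr2, the receptor of Ccl2 and Ccl7, read 4.42 to 5.01, and Ccr6, that of Ccl20, 6.08 to 6.76. Cxcr3, that of Cxcl9 and Cxcl10, read 6.74 to 7.35, and Ccr8, that of Ccl1, 5.38 to 6.63. On the ligand side, Ccl25, a ligand of Ccr9, read 7.09 to 7.39, and Ccl8, which lies between Ccl2 and Ccl1 on chromosome 11, 5.26 to 6.48. All of these were under 7.70 on every array, where a low reading does not show that a gene is silent.

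The family's genes lie in runs. In RefSeq GRCm38.p6 Ccl2, Ccl7, Ccl11, Ccl12, Ccl8 and Ccl1 are 6 consecutive protein-coding genes on chromosome 11, and 3 of them, Ccl2, Ccl7 and Ccl1, were tested. Ccl2 and Ccl7, side by side in that order, are the pair that passed the contrast of the sorts. Ccl11 and Ccl8, from the same run, were highest in Mts24+ cells of K14Snail mice, at 7.94 and 6.48, while Ccl12 spanned only 5.47 to 5.82. A second run of 5 genes, Ccl5, Ccl9, Ccl6, Ccl3 and Ccl4, had 1 tested gene, Ccl6.

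Other genes of the chemokine system were counted over lists, beside shares of all tested genes of 12.1% higher and 11.6% lower in CD34+ cells and 11.1% higher and 11.7% lower in Mts24+ cells. Of 13 further chemokine-related genes on the array, decoy receptors and Cmtm genes included, 8 were tested. In CD34+ cells 2 were higher and 4 lower, and in Mts24+ cells 3 were higher and 2 lower. Cmtm3 and Cmtm7 were among the higher and Cmtm6 among the lower genes of both sorts. Xcl1, a chemokine of activated T cells, was lower in CD34+ cells (-1.40 ± 0.14, adjusted p = 0.00167) and in Mts24+ cells (-1.46 ± 0.14, adjusted p = 0.00294). Ackr2, a decoy receptor that clears inflammatory CC ligands such as Ccl2, read 6.98 and 7.78 in CD34+ cells of K14Snail and wild type mice, against 9.13 and 9.48 in their CD34- cells (-1.93 ± 0.19, adjusted p = 0.00172). Ackr3, the scavenger of Cxcl12, was lower in CD34+ cells (-1.49 ± 0.21, adjusted p = 0.00579), where Cxcl12 itself was higher. Neither Ackr2 nor Ackr3 passed in the Mts24 sort, where Ackr4, of the same list, was higher in the positive cells (0.52 ± 0.12, adjusted p = 0.0312).

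Signalling, regulator and protease lists were counted beside the same shares. Of 18 tested genes of chemokine receptor signalling, 2 were lower in CD34+ cells, near the 11.6% of all tested genes, and 1 was higher and 8 were lower in Mts24+ cells. Rac2, a small GTPase of blood cells, was lower in both (-0.66 and -1.05). Rac2, Pik3cg, Prex1 and Rgs18, all among the lower genes in Mts24+ cells, reached the level for testing only on negative arrays. These genes could be tested only because they were high there, so the counts of lower signalling genes are no support. Of 22 tested upstream regulators 1 was higher and 5 lower in CD34+ cells, and 1 was higher and 2 lower in Mts24+ cells. Ifnar2, a chain of the type I interferon receptor, was higher in K14Snail than in wild type mice by 0.63 ± 0.07 (adjusted p = 0.0246, and 0.0477 with no pool block), the only regulator to pass that comparison, and was higher in Mts24+ cells by 0.84 ± 0.11 (adjusted p = 0.00668). Ifngr1, a chain of the interferon gamma receptor, was lower in CD34+ cells (-1.28 ± 0.11, adjusted p = 0.0012). Of 6 tested chemokine-cutting proteases 3 were lower in CD34+ and 3 in Mts24+ cells. In the genotype comparison 2.05% of all tested genes passed with the pool block and 0.382% without it. With the block 1 protease was higher and 1 lower in K14Snail mice, and neither passed without it. Adam10, which sheds Cxcl16 and Cx3cl1 from the cell surface, was the higher one (0.46 ± 0.07, adjusted p = 0.0404, and 0.0732 with no pool block). Dpp4, which trims ligands such as Cxcl9, Cxcl10 and Cxcl12, was the lower one (-0.68 ± 0.10, adjusted p = 0.0418, and 0.0686 with no pool block). Dpp4 reached the level for testing only on negative arrays of wild type mice, so its place in the protease counts is no support.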

How the data were processed

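Each array measured RNA of 1 pool of sorted cells after whole-transcript amplification and biotin labelling, per the labels' protocols. The deposited log2 values per probe set were made by the authors with RMA (background correction, normalization between arrays and probe summary), per the submitters' processing notes. Its version and the genome build are not given in the sources used here. Values ran from 3.04 to 14.49 and array medians from 7.32 to 7.42. The number of arrays limits the precision.

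Of 28874 probe sets 21789 have 1 gene symbol, 1621 several and 5464 none, and only the first were used. All 51 family symbols match current RefSeq symbols. No measure of background was used, so differences of genes under 7.70 are uncertain.

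limma 3.58.1 (R 4.3.3, statmod 1.5.0) fitted the 4 fractions and genotype to 10720 genes, with a random block for the 4 pools, each a genotype and marker (duplicateCorrelation, consensus correlation -0.175, 3 residual and 2.78 prior degrees of freedom), and an interaction model with 2 residual degrees of freedom. Errors are limma's standard errors. P-values were adjusted by Benjamini-Hochberg with a threshold of 0.05. The code was tested on simulated independent arrays, where it returned the simulated differences, and the genotype fit with the block made more false calls than its threshold allows. Python 3.11.15, pandas 2.3.3, numpy 2.4.6 and matplotlib 3.10.9 made tables and plots.

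Genes with values on all arrays were those past the threshold in any comparison, those with a log2 difference of at least 1 in 2 or more single fractions, and the 8 with the highest mean level. Cxcl1, outside this rule, and the untested genes given with values were named after their values were seen. The family, the lists and the rules were chosen with earlier results of these data known. Alternatives were no pool block, no filter, a filter on 4 arrays, the mean of probe sets, quantile normalization, an intensity trend, and leaving out each array or pool. Leaving out the K14Snail or the wild type array of a fraction gave the same genotype and interaction results. It also gave the same result for a sort when the array belonged to the other sort. Such fits are not separate checks, and the same holds for pools.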

Additional observations from a re-analysis of the deposited data

Results flagged for a closer look

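Ccl2 and Ccl7 differed between the CD34 and the Mts24 sort by the test of that difference (CD34 minus Mts24, -2.67 and -2.03 log2). Ccl20 (-1.96) and Cx3cl1 (-0.52) read lower in the positive than in the negative cells in both CD34 pairs and higher in both Mts24 pairs, but their contrasts did not pass the threshold.

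Ccl6 (interaction -0.90), Cxcl12 (-0.68) and Cxcr6 (0.49) had genotype differences of opposite sign in positive and negative cells. The K14Snail arrays of Ccl6 were lower than wild type in both positive fractions and higher in both negative fractions, and those of Cxcl12 likewise. For Cxcr6 the K14Snail arrays were higher in the positive and lower in the negative fractions, with differences in the positive fractions of 0.02 and 0.11 between values under 7.70. No interaction passed the threshold with all 8 arrays.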

How the results depend on the processing

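Counts are of the 18 tested genes. In the genotype comparison 2 genes passed, against 0 with no pool block, 4 with quantile normalization (Ccl7 and Cxcl10 joined), 0 to 1 without 1 array, 1 without the K14Snail or the wild type CD34 pool (Cxcr2) and 0 without either Mts24 pool. In the CD34 sort 7 passed, against 3 to 8 without 1 array. In the Mts24 sort 14 passed, against 9 with the stricter filter, which tests fewer genes, 7 to 14 without 1 array and 0 without the K14Snail or the wild type Mts24 pool, which leaves 1 pair. In the contrast of the sorts 2 passed, against 0 to 4 without 1 array, 0 without either Mts24 pool and 1 without the wild type CD34 pool. In the interaction 0 passed, against 0 to 6 without 1 array. The counts past 1 in single fractions moved by no more than 1.5 times.

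Signs that turned were all of values not past the threshold. Without 1 array the genotype difference ran from -0.138 to 0.163 for Ccl6, from -0.322 to 0.256 for Ccr4, from -0.236 to 0.188 for Ccr9 and from -0.31 to 0.002 for Cxcl12, and the CD34 difference of Ccl2 from -0.175 to 0.884. The genotype difference was -0.011 for Ccl6 without either Mts24 pool, and 0.287 for Ccr4 and 0.254 for Ccr9 without either CD34 pool. Without the K14Snail CD34 pool the CD34 difference was -0.151 for Ccl2 and -0.037 for Ccl7. Over single genes and alternatives, 328 of the values past the threshold stayed past it and 115 did not. Of those not past it, 543 stayed so, 24 passed and 19 changed sign. These tallies count fits that are the same for K14Snail and wild type arrays or pools once for each. Where no other value is given, the cause was not tested. No pairing by replicate number was possible because each group has 1 array. The models match arrays by fraction and pool instead.

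With 1 array per group, no spread between mice is measured, and the 4 genotype pairs come from only 2 pools per genotype if positive and negative cells of matching pool size shared their mice, which the labels do not say. Levels under 7.70 were not separated from background.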

Other observations

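Some chemokine genes lie on probe sets that carry several symbols and were not counted in the family. The 3 probe sets shared by Ccl27a and Ccl27b, the skin-homing ligands of Ccr10 made by keratinocytes, read 13.53 to 14.30 on all 8 arrays. On the probe set 10512315 the level was 13.83 and 13.95 in CD34+ cells of K14Snail and wild type mice, against 13.60 and 13.69 in their CD34- cells, and 13.92 and 13.91 in their Mts24+ cells, against 13.55 and 13.53 in their Mts24- cells. The receptor Ccr10 read 6.58 to 7.05. The 4 probe sets shared by Ccl21a, Ccl21b, Ccl21c and Ccl21d, ligands of Ccr7, read 6.61 to 6.96.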
